A study of Homo sapiens with 8 samples.

Results

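The genes described here encode the NF-kB transcription factor subunits, the IkB proteins that bind them and 1 kinase of the IKK family. They were chosen by name: NFKB1, NFKB2, REL, RELA and RELB for the subunits, NFKBIA, NFKBIB, NFKBIE and NFKBIZ for the inhibitors, and IKBKE for the kinase. These are 10 of 20050 protein-coding genes with a chromosomal position in the gene table, and each was matched by its symbol. Chromatin immunoprecipitation and sequencing (ChIP-seq) located NKRF, the NF-kB repressing factor, in MDA-MB-231-P3, a triple-negative breast cancer subline labelled as highly metastatic. One group had received a control siRNA and the other si-Uc003xsl.1, which targets the lncRNA of that name, delivered with a lipid reagent, and every NKRF library used the antibody ab168829. In the title of the series the lncRNA has a decoy role toward NKRF, and the groups compare NKRF peaks with and without its targeting. Each group had 2 NKRF libraries from this 1 subline, and these files hold no measure of how far the RNA was depleted.

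NF-kB subunits form dimers that IkB proteins hold in the cytoplasm, and IKK kinases release them by phosphorylating IkB for degradation. Several of these genes, with NFKBIA the best known, are themselves switched on by NF-kB through kB sites in their promoters, which closes a feedback loop. NKRF is a nuclear protein known for repressing a small set of NF-kB target promoters, IL8 among them, through negative regulatory elements that lie beside kB sites. In triple-negative breast cancer cells, persistent NF-kB activity is known to sustain inflammatory cytokine expression.

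The sequences that matter most are the windows around annotated gene starts that a peak covered. Start windows run from 250 bases before to 50 bases after a start and come from RefSeq on GRCh38.p14. They are printed 5′ to 3′, and capitals mark matches to the NF-kB consensus site, searched by name on both strands. Overlapping matches are shown as 1 run, and no other motif was searched. The first is the start of NFKB1, the only start window of a member with a peak over it. The next 2 belong to SLC35B2 and RASSF5, neighbours whose starts lay under the wide peaks assigned to NFKBIE and IKBKE.
NFKB1 (chr4:102501109-102501408, + strand): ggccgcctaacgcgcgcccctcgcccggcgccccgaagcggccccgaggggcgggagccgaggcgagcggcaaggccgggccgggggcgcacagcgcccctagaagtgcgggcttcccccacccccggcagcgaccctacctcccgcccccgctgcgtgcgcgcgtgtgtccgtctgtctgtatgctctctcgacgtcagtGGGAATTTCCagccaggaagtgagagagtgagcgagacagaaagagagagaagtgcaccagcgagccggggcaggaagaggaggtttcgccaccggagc
SLC35B2 (chr6:44257479-44257778, - strand): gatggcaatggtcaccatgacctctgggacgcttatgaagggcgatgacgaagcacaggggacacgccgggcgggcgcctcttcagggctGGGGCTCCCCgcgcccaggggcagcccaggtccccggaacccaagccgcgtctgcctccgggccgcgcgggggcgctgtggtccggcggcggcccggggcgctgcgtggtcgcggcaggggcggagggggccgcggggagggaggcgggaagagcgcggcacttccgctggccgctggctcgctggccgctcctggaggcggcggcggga
RASSF5 (chr1:206507281-206507580, + strand): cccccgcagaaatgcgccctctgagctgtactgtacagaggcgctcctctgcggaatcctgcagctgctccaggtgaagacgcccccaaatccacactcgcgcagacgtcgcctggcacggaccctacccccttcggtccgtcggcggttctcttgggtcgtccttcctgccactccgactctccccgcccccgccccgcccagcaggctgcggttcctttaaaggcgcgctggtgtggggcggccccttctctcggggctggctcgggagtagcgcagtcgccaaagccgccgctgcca

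All matches in the other members' start windows are shown for comparison with that of NFKB1, with 10 bases on either side, or fewer where the window ends. These stretches come from start windows without a peak, again with the match in capitals.
NFKB2 (chr10:102394461-102394491, + strand): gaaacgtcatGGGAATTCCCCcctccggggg
NFKB2 (chr10:102394490-102394519, + strand): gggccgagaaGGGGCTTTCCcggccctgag
NFKB2 (chr10:102395519-102395548, + strand): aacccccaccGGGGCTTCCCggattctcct
NFKB2 (chr10:102395674-102395703, + strand): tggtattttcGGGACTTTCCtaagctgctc
REL (chr2:60881517-60881547, + strand): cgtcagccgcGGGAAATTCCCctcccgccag
NFKBIA (chr14:35404811-35404840, - strand): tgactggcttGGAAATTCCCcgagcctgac
NFKBIB (chr19:38899931-38899961, + strand): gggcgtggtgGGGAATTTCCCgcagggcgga
NFKBIB (chr19:38899997-38900018, + strand): gggcgactgcGGGGGGCCCCtg
NFKBIZ (chr3:101827757-101827786, + strand): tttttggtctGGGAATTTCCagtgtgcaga
NFKBIZ (chr3:101849265-101849294, + strand): gcgcgctgtcGGGGTTTCCCggtgaagggc

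The peak lists differed in origin. After duplicate filtering, the NKRF libraries held between 8250475 and 19335431 tags, and the lists held 7444, 902, 7577 and 4463 peaks in control siRNA replicates 1 and 2 and si-Uc003xsl.1 replicates 1 and 2. MACS 1.4.2, with p at most 1e-04, made 3 of the lists, and MACS 2.1.1.20160309, with q at most 0.05, made that of control siRNA replicate 2. For that library, the caller and the replicate cannot be told apart. In control siRNA replicate 1 every peak carried a caller false discovery rate of 100%, and 68.1% of its peaks held 6 tags, the smallest number in that list. The median rate was 30.75% in si-Uc003xsl.1 replicate 1 and 10.96% in si-Uc003xsl.1 replicate 2. In these lists 31.9% and 33.1% of peaks held 6 tags, again the smallest number. Tag counts, pileups, fold enrichments over input, -log10 p and false discovery rates are the authors' values for each peak and were not rescaled between lists.

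Of the 10 members, 5 had a peak in the gene body or within 10 kb of either end in at least 1 library, where 40.9% of all protein-coding genes did: NFKB1, NFKBIB, NFKBIE, NFKBIZ and IKBKE. The other 5, NFKB2, REL, RELA, RELB and NFKBIA, had none in any list. Control siRNA replicate 1 had peaks at 2 members, NFKB1 and NFKBIZ, where 11.8% of all protein-coding genes had one. Control siRNA replicate 2 had them at 0 members, where the share over all genes was 2.58%. Si-Uc003xsl.1 replicate 1 had them at 3, NFKB1, NFKBIB and IKBKE, against 23.1% of all genes, and si-Uc003xsl.1 replicate 2 at 1, NFKBIE, against 17.2%. With 10 genes, these counts were close to what the background shares give, so none is a result about the members as a set. The mean number of members with a peak was 1.0 ± 1.41 (SD, n = 2) in the control libraries, and with si-Uc003xsl.1 it was 2.0 ± 1.41 (SD, n = 2). This difference of 1.0 gene was smaller than the spread between replicates, and the groups overlapped. It was 0 without control siRNA replicate 2, the library from the other caller, and 0 without si-Uc003xsl.1 replicate 1. Without control siRNA replicate 1 it was 2.0, and without si-Uc003xsl.1 replicate 2 it was also 2.0. No test was run on this count, because the members were chosen with earlier results known. An exact permutation over the 3 splits of 4 libraries could not fall below p = 0.333.

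**Figure D1:**
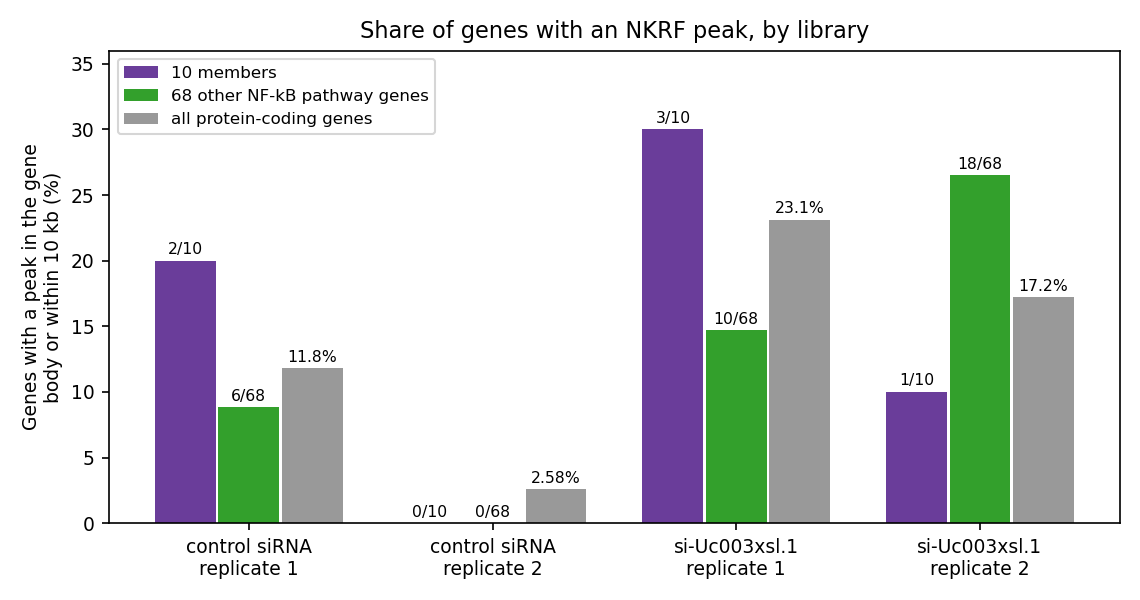
Share of genes (%, vertical axis) with an NKRF peak in the gene body or within 10 kb, for the 4 NKRF libraries, in the 10 members, 68 other NF-kB pathway genes and all protein-coding genes; labels give counts for the first 2 sets. The members reach 2, 0, 3 and 1 genes, and the background 11.8%, 2.58%, 23.1% and 17.2%.

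Within the gene body alone, the counts were 2 members in control siRNA replicate 1 (9.73% of all genes), 0 in control siRNA replicate 2 (2.09%), 2 in si-Uc003xsl.1 replicate 1 (16.9%) and 0 in si-Uc003xsl.1 replicate 2 (12.3%). A peak over a start window was rarer. Of the 8 members with a start window in the table, 1 had such a peak in si-Uc003xsl.1 replicate 1, where 4.73% of 15843 protein-coding genes did. No member had one in the other lists, where the shares over all genes were 0.0947%, 0.0126% and 3.53% in control siRNA replicates 1 and 2 and si-Uc003xsl.1 replicate 2. Of the 7 member peaks, 1 thus lay at the start of a member, 3 lay inside members away from the start, and 3 had their summits in a neighbouring gene.

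NFKB1 encodes p105, the precursor of the p50 subunit, and is the longest member at 116 kb, longer than 85.8% of protein-coding genes. In si-Uc003xsl.1 replicate 1 its peak lay at chr4:102501154-102501498, 345 bp long, with 25 tags, a fold enrichment of 5.02 and a -log10 p of 5.40. The summit was 65 bp upstream of the annotated start, and the peak covered bases 46 to 300 of the window printed above. The 712 peaks over start windows in that list had medians of 557 bp, 32 tags and a fold of 5.28, so this peak was shorter and held fewer tags than the median of its kind. Its -log10 p was higher than that of 86.2% of the list, with a caller false discovery rate of 29.2%. In control siRNA replicate 1 NFKB1 had a different peak, at chr4:102512848-102513028, 11561 bp inside the gene and downstream of the start. That peak was 181 bp long with 8 tags, a fold of 16.5 and a -log10 p of 5.55, higher than 93.4% of its list. The peaks were 11.3 kb apart and do not mark the same position. Control siRNA replicate 2 had no peak nearer than 145 kb and si-Uc003xsl.1 replicate 2 none nearer than 853 kb. NFKB1 was the only member with a peak in more than 1 library, as 11.3% of all genes had, a pattern of presence it shared with 525 of the protein-coding genes (2.62%), itself included.

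The other subunit genes had no peak within 10 kb. NFKB2 encodes p100, the precursor of p52 in the non-canonical pathway, and its nearest peaks lay at 114 kb and 2744 kb in control siRNA replicates 1 and 2 and at 128 kb and 338 kb in si-Uc003xsl.1 replicates 1 and 2. For REL, which encodes c-Rel, the distances in the same order were 35.2 kb, 3497 kb, 146 kb and 116 kb. For RELA, the gene of p65 and the main activating subunit, they were 2084 kb, 5392 kb, 79.0 kb and 114 kb. At RELA, RELB, NFKBIA, NFKBIB, NFKBIE and IKBKE both si-Uc003xsl.1 libraries had a nearer summit than both controls, 6 of 10 members beside 49.5% of all genes. At RELA these peaks were wide, at 818 bp with 62 tags in replicate 1 and 536 bp with 30 tags in replicate 2. They did not lie at the same place, the first being chr11:65574010-65574827 and the second chr11:65539669-65540204. RELB encodes the partner of p52, and its distances were 712 kb, 6075 kb, 55.4 kb and 12.0 kb. The last is a peak of 199 bp with 7 tags, the nearest outside the 10 kb limit. Just inside the limit was the outer peak at IKBKE, whose edge began 9969 bp past the gene. At the other members, NFKB1, NFKB2, REL and NFKBIZ, control siRNA replicate 1 had the nearest summit. At REL this was a peak of 96 bp with 6 tags.

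**Figure D2:**
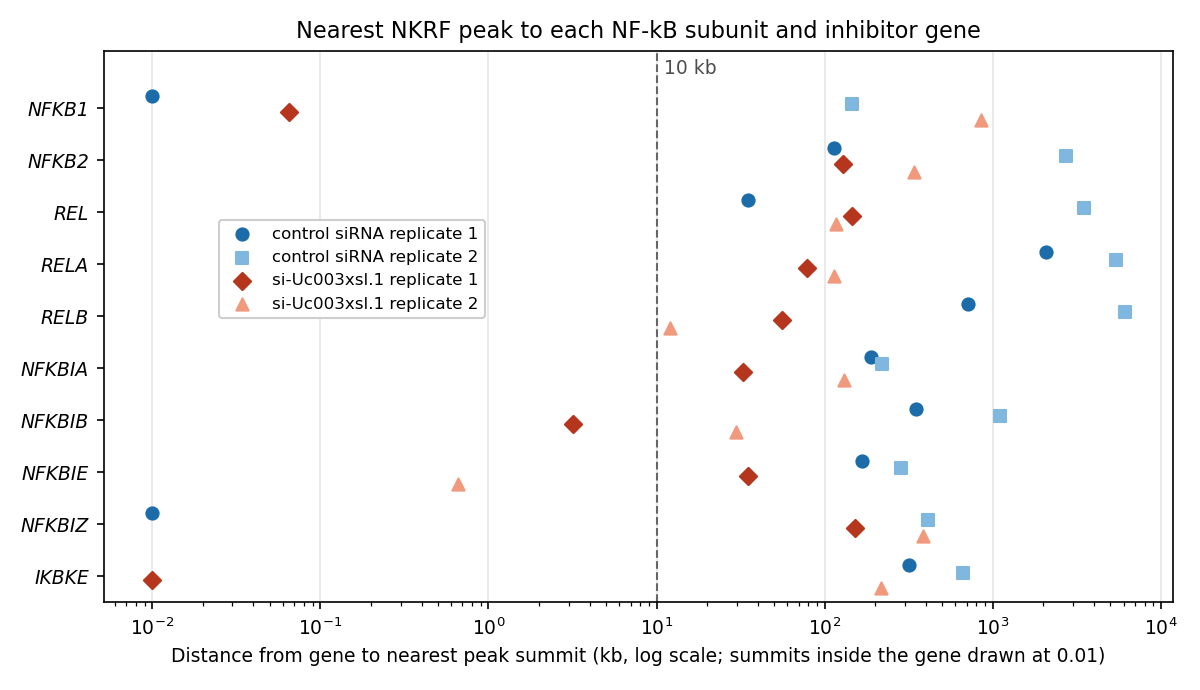
Distance (kb, log scale) from each member gene to the nearest NKRF peak summit in the 4 libraries, with summits inside the gene drawn at the left edge and the 10 kb limit dashed. NFKB1 has marks left of the limit in 2 libraries and NFKBIB, NFKBIE, NFKBIZ and IKBKE in 1 each, while the other 5 genes have none.

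NFKBIA encodes IkB-alpha, the inhibitor best known for its rapid resynthesis after NF-kB activation, and had no peak within 10 kb. Its nearest peaks lay at 189 kb and 219 kb in the controls and at 32.6 kb and 131 kb after si-Uc003xsl.1. The nearest of all held 12 tags over 316 bp. NFKBIB, the gene of IkB-beta, had a peak in si-Uc003xsl.1 replicate 1 at chr19:38911939-38912244, 306 bp long with 16 tags and a fold of 7.51. The summit lay 3195 bp past the gene and 12115 bp downstream of its nearest annotated start, but only 102 bp inside an end of the neighbouring gene CCER2. In the other libraries the nearest peak to NFKBIB was at 348 kb, 1098 kb and 29.5 kb in control siRNA replicates 1 and 2 and si-Uc003xsl.1 replicate 2.

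NFKBIE, the gene of IkB-epsilon, had its peak in si-Uc003xsl.1 replicate 2 at chr6:44256883-44257730, 848 bp long with 47 tags and a fold of 3.63. By length it exceeded 97.5% of that list and by tags 98.0%, while its -log10 p of 4.79 exceeded 54.6%. The summit was 656 bp outside NFKBIE and within SLC35B2, which encodes a transporter of the sulfate donor PAPS into the Golgi. It lay 18 bp downstream of the annotated SLC35B2 start whose window is printed above, of which the peak covered bases 49 to 300. That window holds a match at bases 91 to 100, under the peak, while another SLC35B2 start window, at chr6:44257239-44257538, was covered over all 300 bases and holds none. The nearest peaks in the other libraries were at 166 kb and 283 kb in the controls and 34.8 kb in si-Uc003xsl.1 replicate 1. NFKBIZ encodes IkB-zeta, an atypical nuclear IkB that acts as a coregulator of secondary NF-kB target genes. Its peak in control siRNA replicate 1, at chr3:101855478-101855621, was 144 bp long with 7 tags, 1 tag above the smallest count of that list. The summit lay 5508 bp inside the gene's far end, 6000 bp downstream of the nearest annotated start, and 29.1% of the list had a lower -log10 p than its 4.17. The nearest peaks to NFKBIZ were at 411 kb in control siRNA replicate 2 and at 152 kb and 385 kb after si-Uc003xsl.1.

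IKBKE encodes IKK-epsilon, a kinase of the IKK family amplified in some breast cancers. Both peaks in its window came from si-Uc003xsl.1 replicate 1. The inner one, at chr1:206473210-206473399, was 190 bp long with 12 tags and a fold of 7.33, its summit 2869 bp downstream of the annotated start and inside the gene. The outer one, at chr1:206506858-206507745, was 888 bp long with 45 tags, a fold of 6.46 and a -log10 p of 7.39. It ranked 151 of 7577 by -log10 p and was the strongest peak assigned to any member in that list. Its summit, however, was 10707 bp past IKBKE and 65 bp downstream of the annotated start of RASSF5, which encodes a Ras-association domain protein. The peak covered the whole RASSF5 window printed above. The nearest peaks to IKBKE in the other libraries were at 319 kb and 664 kb in the controls and at 216 kb in si-Uc003xsl.1 replicate 2.

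**Figure D3:**
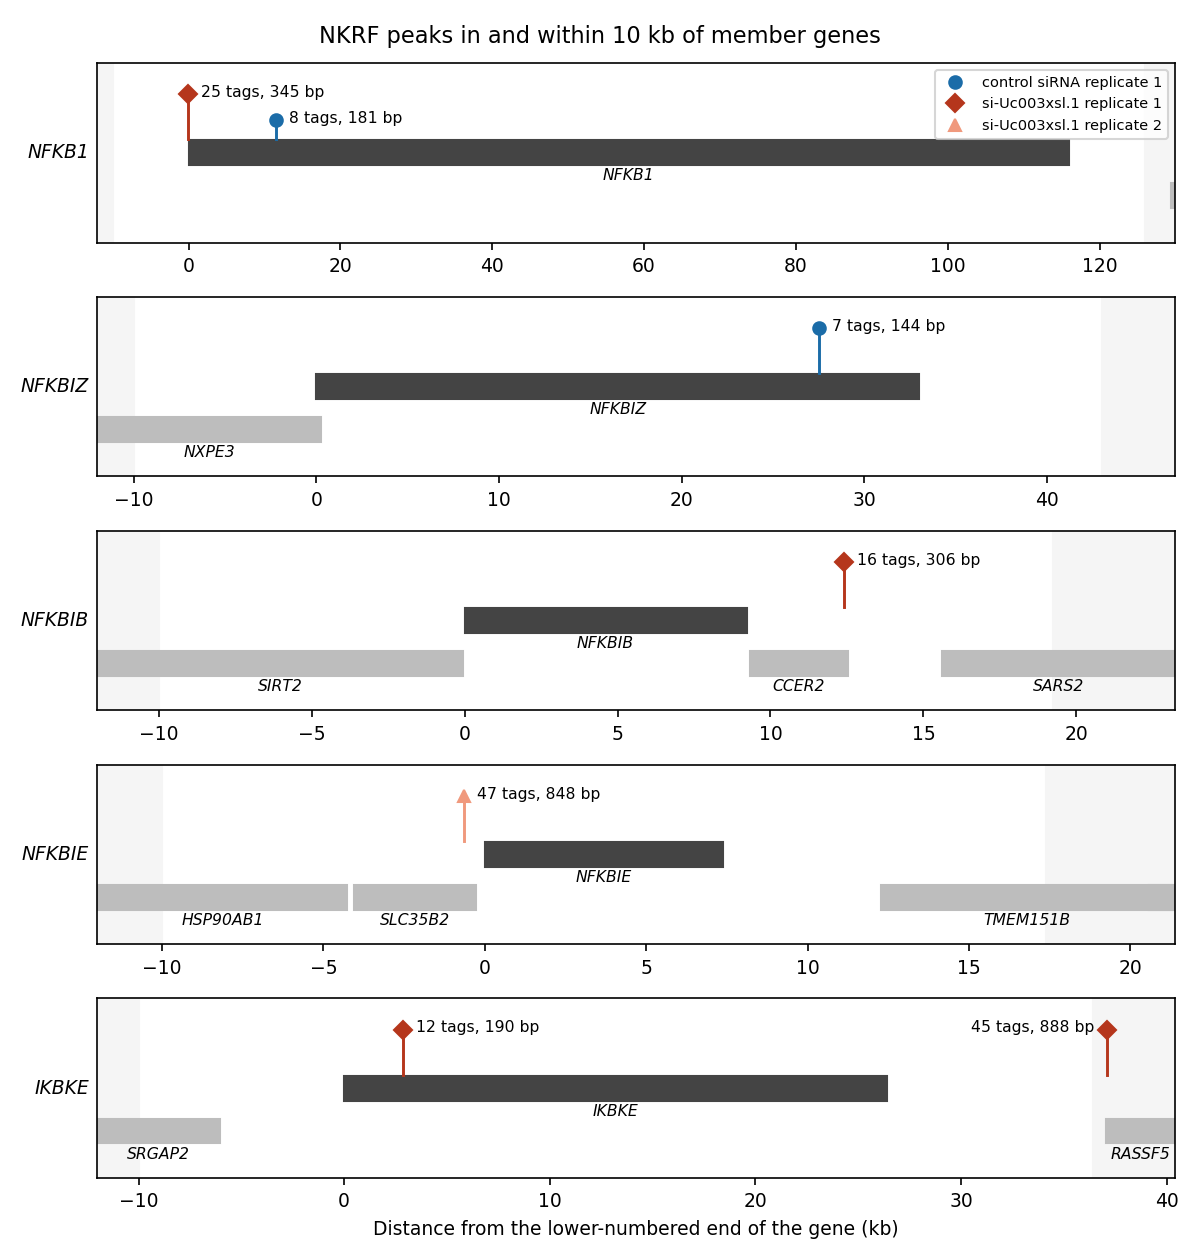
NKRF peaks (marks, by library, with tags and length in bp) in and within 10 kb of the 5 members that had any, against the distance in kb from the lower-numbered end of each gene; dark bars are the member, pale bars other protein-coding genes, and grey shading lies beyond 10 kb. The peaks of 47 tags and 45 tags sit over SLC35B2 and RASSF5, and the peak of 25 tags at the start of NFKB1.

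None of the 7 member peaks overlapped a peak of another list, and none lay within 500 bp of one. Overlap was rare throughout, at 351 of all 20386 peaks (1.72%), and 0.998% of protein-coding genes had an overlapping peak in the gene body or within 10 kb, so 0 of 7 is no result about the members. The closest pair across lists was that at NFKB1, at 11.3 kb. For the peak by NFKBIE the nearest peak of si-Uc003xsl.1 replicate 1 was 32.8 kb away, and for the peak by NFKBIB the nearest of si-Uc003xsl.1 replicate 2 was 41.6 kb away. Over the 10 members, the median distance to the nearest summit was 178 kb and 881 kb in control siRNA replicates 1 and 2 and 45.1 kb and 124 kb after si-Uc003xsl.1. Over all protein-coding genes it was 280 kb, 1318 kb, 73.4 kb and 132 kb in the same order, so the order of the libraries was the same in both. Within 100 kb, 3, 0, 7 and 3 members had a peak in the same order of libraries, beside 29.0%, 7.4%, 57.3% and 43.9% of all genes. Si-Uc003xsl.1 replicate 1 had 4 peaks around NFKBIB, 3 around IKBKE, 2 each around RELB and NFKBIE and 1 each around NFKB1, RELA and NFKBIA. Si-Uc003xsl.1 replicate 2 had 5 around RELB and 1 each around NFKBIB and NFKBIE. The median number within 100 kb was 1.0 in si-Uc003xsl.1 replicate 1 and 0.0 in si-Uc003xsl.1 replicate 2, for members and for all genes alike. Around NFKB2 there was no peak within 100 kb in any list.

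Matches to the NF-kB consensus site stood in the start windows of 6 of the 8 members in the table: NFKB1, NFKB2, REL, NFKBIA, NFKBIB and NFKBIZ. Over all protein-coding genes in the table, 2522 of 15843 (15.9%) had a match. RELA and IKBKE had none in these windows. The site of NFKB1 occupied bases 202 to 211, ending 40 bp before the start, and the NKRF summit of si-Uc003xsl.1 replicate 1 stood 16 bp further upstream of its first base, at base 186. NFKB1 and the first start of NFKBIZ carried the same 10 letters, and the first site of NFKBIB continued them by 1 base. Read on the opposite strand, the site of NFKBIA had these same letters, and the run at REL contained them. At NFKBIA the site ended 72 bp before the start, and at REL 37 bp. The 5 members with such a site other than NFKB1 had no peak over their start windows in any list. Among start windows under a peak, 15.1% in si-Uc003xsl.1 replicate 1 and 15.6% in si-Uc003xsl.1 replicate 2 held a match, against 12.7% of all 22199 windows. These windows were also richer in G and C, with a median of 71.7% and 72.8% against 62.3%. The NFKB1 window was at 71.3% and held 35 CG dinucleotides, against medians of 34 in windows under a peak of that library and 21 over all. A match is a description of letters and does not show that a factor was bound.

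**Figure D4:**
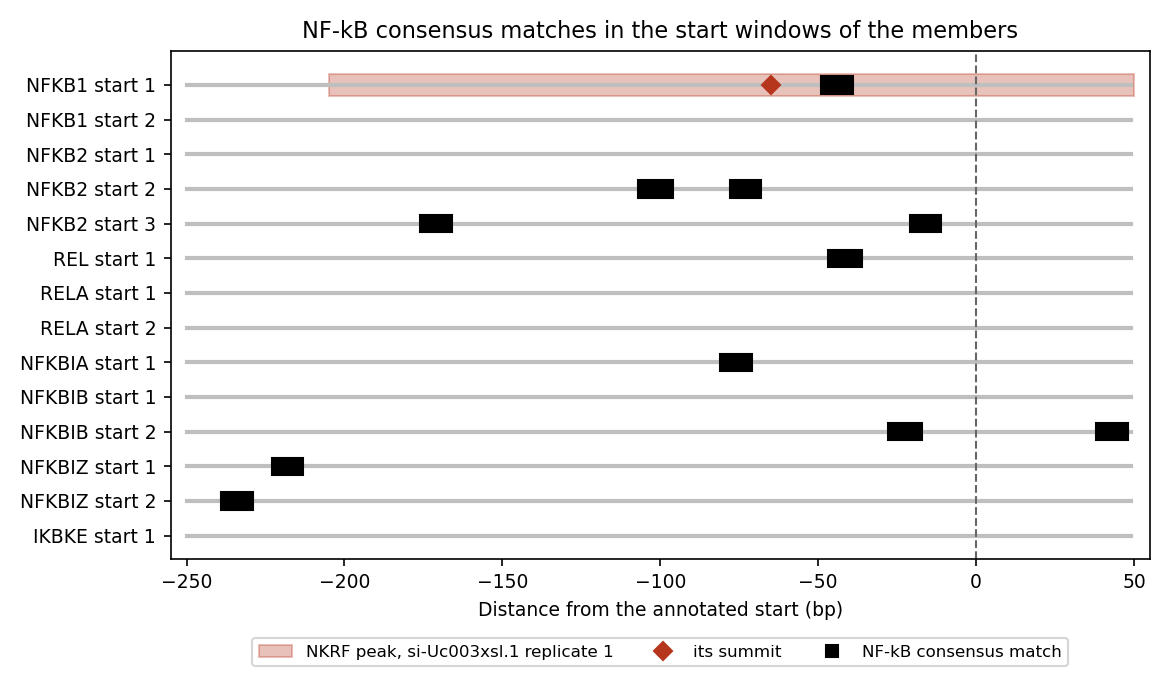
Start windows of 8 members, drawn by distance in bp from the annotated start, with NF-kB consensus matches as black boxes and the NKRF peak of si-Uc003xsl.1 replicate 1 shaded. At NFKB1 the summit lies 65 bp upstream of the start, 16 bp from the match, and no other window has a peak.

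Among 68 other genes of the NF-kB pathway, 26 had a peak in the gene body or within 10 kb in at least 1 library (38.2%, beside 40.9% of all protein-coding genes) and 42 had none. Control siRNA replicate 1 had 6 (8.82%, exact Clopper-Pearson 95% interval 3.31 to 18.2) beside 11.8% of all genes, and control siRNA replicate 2 had 0 (interval 0 to 5.28) beside 2.58%. Si-Uc003xsl.1 replicate 1 had 10 (14.7%, interval 7.28 to 25.4) beside 23.1%, and si-Uc003xsl.1 replicate 2 had 18 (26.5%, interval 16.5 to 38.6) beside 17.2%. The pathway share was thus below the background in 3 libraries and above it in si-Uc003xsl.1 replicate 2. Every interval, however, included the background share of its library. The intervals cover counting error over genes only and treat genes of any length as alike and independent. The list was chosen with earlier results known, so the differences from the background were not tested. By role, si-Uc003xsl.1 replicate 2 had peaks at 6 of 13 ubiquitin enzymes and their partners (SKP1, FBXW11, BTRC, UBE2V1, CUL1 and RNF31). It had them at 3 of 11 nuclear and other regulators (BCL3, OTULIN and CYLD), beside 17.2% of all genes. The peaks at the ubiquitin enzymes were small, with 6 to 10 tags where the list median was 8. At SKP1, BTRC and RNF31 they lay outside the gene. In si-Uc003xsl.1 replicate 1 the counts for these roles were 1 of 13, BTRC, and 0 of 11, beside 23.1%. In control siRNA replicates 1 and 2 they were 2 and 0 of 13 and 0 and 0 of 11, beside 11.8% and 2.58%. The roles are a coarse grouping, and OTULIN and CYLD, which remove ubiquitin, could stand in either. Among 14 kinases and their partners the counts were 2, 0, 4 and 3, and among 13 adaptors 1, 0, 2 and 4. Receptors gave 1, 0, 2 and 1 of 10, and ligands 0, 0, 1 and 1 of 7.

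TBK1, the closest relative of IKBKE, had the strongest pathway peak. It lay in si-Uc003xsl.1 replicate 1 at chr12:64451998-64452578, 398 bp downstream of the start, with 30 tags over 581 bp and a -log10 p of 10.8, ranking 11 of 7577. TNFSF11, the gene of RANKL, followed RIPK1 in that list with 11 tags. In si-Uc003xsl.1 replicate 2 the strongest after RIPK1 were a peak of 15 tags inside TRAF2, an adaptor of TNF receptors, and one of 22 tags, 7422 bp outside IL1R1, an interleukin-1 receptor gene. Control siRNA replicate 1 led with peaks of 6 tags inside IL1RAP and 7 tags inside MALT1 and BTRC.

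RIPK1, which encodes a kinase that links TNF receptor 1 to the IKK complex, was the only pathway gene whose peaks overlapped between lists, 1 of 68 (1.47%) beside 0.998% of all protein-coding genes. In si-Uc003xsl.1 replicate 1 the peak was chr6:3068237-3069098, 862 bp long with 63 tags and a fold of 4.18. Its -log10 p of 5.385 ranked 1072 of 7577, with a caller false discovery rate of 28.54%. In si-Uc003xsl.1 replicate 2 the peak was chr6:3068458-3069152, 695 bp long with 43 tags, a fold of 5.94 and a -log10 p of 8.44, ranking 41 of 4463. Its caller false discovery rate was 41.46%, above that list's median of 10.96%. The summits lay 496 bp and 526 bp downstream of an annotated start of RIPK1. The start window is printed because both peaks reached it, the first over all 300 bases and the second over bases 215 to 300, and it has no match to the NF-kB consensus site.
RIPK1 (chr6:3068244-3068543, + strand): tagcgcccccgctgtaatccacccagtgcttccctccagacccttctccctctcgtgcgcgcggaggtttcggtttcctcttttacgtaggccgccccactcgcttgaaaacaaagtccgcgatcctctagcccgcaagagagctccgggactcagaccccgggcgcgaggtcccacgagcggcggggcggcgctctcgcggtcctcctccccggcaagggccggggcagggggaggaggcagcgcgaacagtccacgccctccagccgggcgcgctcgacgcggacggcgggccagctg
RIPK1 had 6 peaks in its window in si-Uc003xsl.1 replicate 1, the strongest a peak of 35 tags with its summit 159 bp upstream of another annotated start. The 6 include a peak of 47 tags, 3167 bp past the gene, and a peak of 12 tags, 9985 bp before it. The RIPK1 peak in control siRNA replicate 1, with 6 tags, lay 38274 bp downstream of a start and did not overlap a peak of another list. BTRC and MALT1 also had peaks in the same 3 libraries, and IL1RAP and RIPK2 in control siRNA replicate 1 and si-Uc003xsl.1 replicate 1, but at different positions in each list. With RIPK1 these are 5 of 68 pathway genes (7.35%) with a peak in more than 1 library, beside 11.3% of all protein-coding genes. BTRC encodes the ubiquitin ligase subunit that recognises phosphorylated IkB, and MALT1 a paracaspase that activates IKK in lymphocytes. Since the lists keep called peaks alone, NKRF at the 5 members without a peak was not detectable at this depth and calling threshold.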

How the data were processed

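NKRF and input DNA were sequenced in 4 libraries each, and the 4 NKRF peak lists were used; the inputs enter only through the authors' calls. Titles gave the replicate numbers and marked the libraries treated with si-Uc003xsl.1, but they do not name the control siRNA. Whether replicates were separate cultures is not given in the sources used here, so their spread may be technical. The submitters' processing notes name Bowtie2, CASAVA 1.4 and GRCh38.p11. Peaks were called per library against 1 input, keeping 1 tag per position, per the file headers, with tag sizes of 50 bp, or 105 bp in control siRNA replicate 2.

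The deposited MACS 1.4.2 lists give tag counts without normalization, a score on a log10 p scale, divided here by 10 to give -log10 p, the fold ratio over input, and a false discovery rate in percent, per the file headers. The deposited MACS 2.1.1.20160309 list gives pileup signal, a fold ratio, and -log10 of p and q, per the file headers.

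Gene ends came from RefSeq on GRCh38.p14, whose primary chromosomes keep their coordinates between patches; no coordinate of the gene table is printed. Of 20056 protein-coding entries, 20050 had a chromosome and were used. Start windows matched 8 of 10 members. A gene had a peak when at least 1 bp of it lay within the window; shared peaks overlapped by at least 1 bp. Distances run from the summit. Assignment was tested on simulated peaks. Python 3.11.15, pandas 2.3.3 and numpy 2.4.6 were used.

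The members and pathway list were chosen with earlier results of these data known. All members were named. Pathway genes got values if among the 3 strongest of a list or present in more than 1 library. No p-value was computed. Alternatives covered the window, placement by summit, stricter or equal lists, smallest peaks and left-out libraries.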

Additional observations from a re-analysis of the deposited data

How the results depend on the processing

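Of 73 recomputed values, 54 kept within 1.5 times of the reported count or within 1 SD of the reported value, and 19 moved further. Counts and distances cannot change sign, and 0 of the group differences did. The 54 include counts that were 0 in both settings. They also include group differences that fell from 1.0 to 0, a change smaller than the SD of 1.41. Reported counts were 2, 0, 3 and 1 members and 6, 0, 10 and 18 pathway genes in control siRNA replicates 1 and 2 and si-Uc003xsl.1 replicates 1 and 2. With windows of 50 kb they were 3, 0, 5 and 3 members and 7, 1, 21 and 28 pathway genes, beside 19.9%, 4.84%, 42.1% and 31.4% of all genes, and the difference of group means for the members was 2.5 instead of 1.0. With peaks of -log10 p of at least 6 they were 0, 0, 1 and 0 members, the 1 being IKBKE through its outer peak, and 0, 0, 2 and 2 pathway genes, beside 0.559%, 2.23%, 2.73% and 2.18%. With lists of equal length, 902 peaks each, they were 1, 0, 1 and 0 members (NFKB1 in the control and IKBKE) and 0, 0, 3 and 4 pathway genes, beside 1.99%, 2.58%, 4.41% and 4.1%. In the gene body alone si-Uc003xsl.1 replicate 2 had 0 members, beside 12.3%. Stricter settings keep fewer peaks by construction. Leaving out 1 library at a time gave differences from 0 to 2.0. The count of recurring member peaks was also 0 when peaks within 500 bp were joined; a stricter overlap could give no other value. No paired analysis was possible because the results come from no test, and nothing says that the numbers pair libraries; by replicate number the differences were 1 and 1. Control siRNA replicate 2 had the fewest tags as well as the other caller, and their parts in its short list cannot be told apart.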
